A study of Mus musculus with 7 samples.

Results

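Dlx1 to Dlx6, the mouse genes of the distal-less homeobox family, were followed between apical ectodermal ridge (AER) and posterior surface ectoderm of the forelimb. They were taken as the non-control probes named Dlx1 to Dlx6 on the array, which gave 6 genes with 1 probe each, of 36406 gene names and 55681 non-control probes. The AER group held 3 arrays of ridge microdissected from C57/Bl6 mouse embryos at embryonic day 11.5, and the Ectoderm group held 4 arrays of surface ectoderm from the posterior limb of embryos of the same strain and stage. Each array carried RNA pooled from 2 to 3 mice, 75 ng of total RNA being labelled with Cy3 for a 1-colour Agilent array. The labels name no mutation or treatment for either group, and the variation between arrays is that between pools. The comparison asks how pools of ridge and of posterior surface ectoderm, as labelled, differ in the mRNA of these genes.

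DLX proteins are homeodomain transcription factors that bind DNA through an AT-rich core. In mammals their genes lie as linked pairs that are transcribed towards each other, and in the forebrain and jaw the partners of a pair share enhancers and are often active in the same cells. In the limb they are known from the ridge, a thickened epithelium along the distal margin whose FGF signals keep the mesenchyme growing: mice lacking both Dlx5 and Dlx6 have split feet, and the human DLX5 and DLX6 locus is affected in split hand and foot malformation.

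The array files place the probes on mm9, and the strands they give run towards each other in each pair. On chromosome 2 the Dlx1 probe lies at chr2:71371499-71371558 on the plus strand and the Dlx2 probe at chr2:71381553-71381612 on the minus strand, their starts 10054 bp apart. On chromosome 11 the Dlx3 probe lies at chr11:94986262-94986357 on the plus strand and the Dlx4 probe at chr11:95001777-95001836 on the minus strand, 15515 bp apart. The Dlx3 probe of 60 bases spans 96 positions of the genome. On chromosome 6 the Dlx6 probe lies at chr6:6815092-6815151 on the plus strand and the Dlx5 probe at chr6:6828063-6828122 on the minus strand, 12971 bp apart. The exon or untranslated region under each probe was not looked up by position.

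The promoters of Dlx1 and Dlx2 are shown because these partners had the largest differences of the family, and a start of Dlx6os1, a noncoding transcript of the Dlx5/6 locus, is shown for its homeodomain-type motifs. Each line holds the 250 bases before the start of transcription in RefSeq's GRCm38.p6 table, at chr2:71529195-71529444 (plus) for Dlx1, chr2:71546755-71547004 (minus) for Dlx2 and chr6:6869534-6869783 (minus) for Dlx6os1. Capitals mark TAATTA, a core that homeodomains bind, and GGGCGG, the GC box, which reads CCGCCC on the other strand.
Dlx1: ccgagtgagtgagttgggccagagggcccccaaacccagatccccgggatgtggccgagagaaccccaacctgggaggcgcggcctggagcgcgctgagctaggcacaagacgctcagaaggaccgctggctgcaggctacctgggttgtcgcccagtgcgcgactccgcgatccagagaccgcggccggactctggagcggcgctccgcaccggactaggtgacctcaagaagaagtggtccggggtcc
Dlx2: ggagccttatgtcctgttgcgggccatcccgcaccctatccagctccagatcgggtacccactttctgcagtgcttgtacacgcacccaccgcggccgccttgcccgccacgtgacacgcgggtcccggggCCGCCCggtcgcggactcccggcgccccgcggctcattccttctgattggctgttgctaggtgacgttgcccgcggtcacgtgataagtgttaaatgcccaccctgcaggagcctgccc
Dlx6os1: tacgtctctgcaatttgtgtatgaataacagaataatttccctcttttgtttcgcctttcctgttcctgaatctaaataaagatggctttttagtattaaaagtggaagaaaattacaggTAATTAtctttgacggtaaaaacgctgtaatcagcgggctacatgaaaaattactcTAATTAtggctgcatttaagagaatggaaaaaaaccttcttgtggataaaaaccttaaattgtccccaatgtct
Searched on both strands, TAATTA was found in 4.84% and GGGCGG in 32.7% of all 32851 promoters of this length in the table. The Dlx1 window held neither, the Dlx2 window held 1 GGGCGG and no TAATTA, and the Dlx6os1 window held 2 TAATTA. A second Dlx6os1 start held 1 TAATTA, and the windows of Dlx6os2 and Dlx4os, noncoding transcripts beside Dlx6 and Dlx4, held neither motif. The GC content was 68% for Dlx1, 66.4% for Dlx2 and 33.2% for the Dlx6os1 start shown, against a median of 52.4% over all promoters. A match describes letters and is not a binding site. The table matched 2 of the 6 coding genes, and Dlx3, Dlx4, Dlx5 and Dlx6 are named only.

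The Dlx6 probe is also shown, because it was the dimmest of the family and its fold depended most on the background correction. It has 60 bases, with a GC content of 46.7%.
Dlx6 probe: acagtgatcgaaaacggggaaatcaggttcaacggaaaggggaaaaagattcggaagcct

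Marker genes of the labelled tissues were read first. All 13 surface epithelium markers were well above background on all 7 arrays. So were all 8 mesenchyme, 5 endothelium and 5 erythroid markers, so detection alone does not set epithelium apart. The 5 ridge markers summed to between 90.6 and 154 times the signal of the array's 75th percentile probe on AER arrays and to between 1.77 and 10.03 on Ectoderm arrays, with Ectoderm replicate 3 the highest of its group. The processed signal of the 75th percentile probe was between 341 and 563 on AER arrays and between 257 and 444 on Ectoderm arrays, 47.6% to 54.2% and 47.7% to 49.9% of probes were well above background, and no probe was saturated. Array profiles correlated across probes at 0.979 to 0.987 within AER, 0.985 to 0.995 within Ectoderm and 0.946 to 0.967 between the groups. Probes are not independent replicates.

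All 6 Dlx probes were higher in AER with the scaling used here, in which each array's log2 processed signal is given relative to its own 75th percentile probe, although Dlx3 turned lower when the arrays were centred on epithelium markers instead. Of 28276 probes above background on at least 3 arrays, 6.97% were higher in AER and 8.02% lower at an adjusted p under 0.05 (limma's moderated test, Benjamini-Hochberg adjustment over all probes), and adjusted p values are from that fit unless another setting, the fit of all probes or the ratios are named. For all 6 Dlx probes every AER array lay above every Ectoderm array, a separation in this direction that 12.9% of the probes tested showed. In bulk tissue a lower signal can mean fewer cells of a type or less RNA in each cell, and these cannot be told apart.

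**Figure D1:**
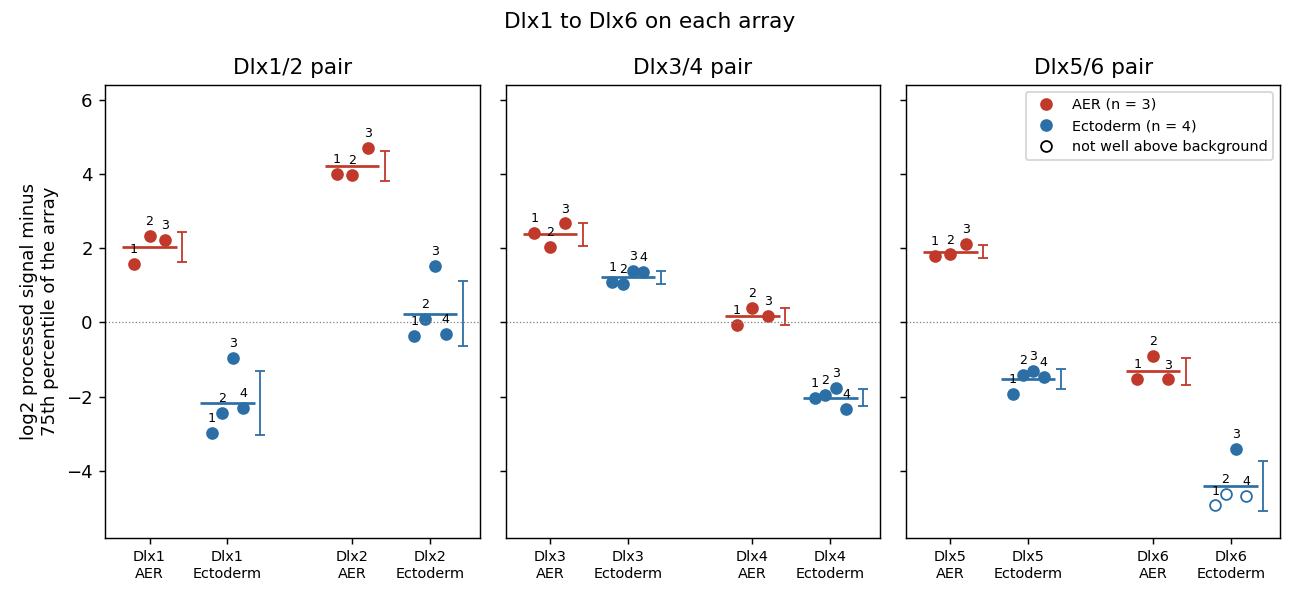
Log2 processed signal relative to the array's 75th percentile probe (y axis) for each Dlx gene on AER arrays (red, n = 3) and Ectoderm arrays (blue, n = 4), numbered by replicate, with the group mean as a line and the SD as a bar. Open circles are arrays on which the probe was not well above background. The groups do not overlap for any of the 6 genes, Ectoderm replicate 3 is the highest of its group for all 6, by the widest margins for Dlx1, Dlx2 and Dlx6, and heights of different genes are not comparable because each has its own probe.

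Dlx1 and Dlx2, best known for specifying forebrain interneurons and acting in the jaw, had the largest differences of the family. Dlx1 had processed signals of 1020, 2818 and 1833 on AER arrays, against 51.8, 82.0, 133 and 70.1 on Ectoderm arrays. Relative to the 75th percentile probe its level averaged 2.04 ± 0.40 in AER and -2.17 ± 0.87 in Ectoderm (log2, SD, n = 3 and 4). It was well above background on all 7 arrays. The log2 difference was 4.21, or 18.5-fold (95% confidence interval 9.29 to 36.8, adjusted p = 0.000328), and 36 of the 28276 probes had a larger one. Dlx2 had signals of 5428, 8843 and 10194 on AER arrays, against 317, 476, 738 and 279 on Ectoderm arrays. Its levels averaged 4.22 ± 0.41 in AER and 0.24 ± 0.88 in Ectoderm, a difference of 3.98 or 15.8-fold (7.85 to 31.9, adjusted p = 0.000491), with 47 probes larger.

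The spread of both genes within Ectoderm came mainly from replicate 3, which was the highest Ectoderm array for each. The same array was the highest of its group for Fgf8, the ridge's main growth signal, with a level of 2.20, while the other Ectoderm arrays read -2.33, -1.42 and -1.40 and the AER arrays between 5.84 and 6.54. Without Ectoderm replicate 3 the difference of Dlx1 was 4.62 or 24.5-fold (adjusted p = 3.02e-05) and that of Dlx2 was 4.41 or 21.3-fold (adjusted p = 2.72e-05). Whether ridge tissue in that pool had a part in these signals was not tested. With normexp background correction Dlx1 was 12.2-fold higher and Dlx2 15.8-fold. Within slide row 1, which held AER replicate 1 and Ectoderm replicates 1 to 3, neither passed (differences of 3.70 and 3.58, adjusted p = 0.0945 and 0.0900), and within slide row 2 both did.

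Dlx3 and Dlx4 had the smallest differences, except that with normexp and in the authors' processed values Dlx6 was below both. Dlx3, needed for epidermal differentiation, hair and placenta, had signals of 1821, 2316 and 2501 on AER arrays, against 876, 908, 668 and 889 on Ectoderm arrays. Its levels averaged 2.38 ± 0.32 in AER and 1.22 ± 0.18 in Ectoderm, so it was well above the 75th percentile probe in both tissues. The difference was 1.16 or 2.23-fold (1.65 to 3.02, adjusted p = 0.00406), and 1129 probes had a larger one. Dlx4, whose human counterpart is active in placenta, had signals of 324, 738 and 446 on AER arrays, against 101, 115, 75.1 and 68.5 on Ectoderm arrays. Its levels averaged 0.17 ± 0.23 in AER and -2.02 ± 0.23 in Ectoderm, a difference of 2.19 or 4.55-fold (3.39 to 6.12, adjusted p = 0.000114), with 325 probes larger.

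Of the family, Dlx3 was the gene whose direction depended on the scaling. Centred on the 13 epithelium markers, its difference was -0.68 (adjusted p = 0.0323), and that of Dlx4 was 0.35 and did not pass (adjusted p = 0.258). Dlx3 did not pass within either slide row either, with differences of 1.25 (adjusted p = 0.0698) and 0.99 (adjusted p = 0.403). With normexp correction Dlx4 was 2.77-fold higher.

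Dlx5 and Dlx6 lay between the other pairs, although Dlx6 had the smallest difference of the family with normexp (1.18, against 1.35 for Dlx3 and 1.47 for Dlx4) and in the authors' processed values (1.22, against 1.39 and 1.49). Both settings use the same background correction. Dlx5, which acts in bone, inner ear and limb, had signals of 1177, 2007 and 1694 on AER arrays, against 108, 167, 103 and 126 on Ectoderm arrays. Its levels averaged 1.91 ± 0.17 in AER and -1.53 ± 0.27 in Ectoderm. The difference of 3.44 or 10.8-fold (8.04 to 14.6) had the smallest adjusted p of the family, 2.01e-05, and 86 probes had a larger difference. Dlx5 passed the test in all 22 alternative settings, with differences between 1.60 and 3.54. It was the single member of the family to do so.

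Dlx6, its partner in the split foot phenotype, was dim. It had signals of 119, 303 and 136 on AER arrays, against 13.5, 18.2, 24.2 and 13.6 on Ectoderm arrays, and was well above background on all 3 AER arrays but on Ectoderm replicate 3 alone of the 4 Ectoderm arrays. Its levels averaged -1.31 ± 0.36 in AER and -4.40 ± 0.68 in Ectoderm, a difference of 3.09 or 8.51-fold (4.85 to 15.0, adjusted p = 0.000585), with 120 probes larger. With normexp correction it was 2.27-fold higher (adjusted p = 0.00180) and in the authors' processed values, which use that correction too, 2.33-fold. Normexp was run with an offset of 50, above the Dlx6 signal on every Ectoderm array. How much of the smaller fold comes from that offset was not tested. Without Ectoderm replicate 3 the difference was 3.42 (adjusted p = 4.38e-05). It did not pass within slide row 1 (difference 2.80, adjusted p = 0.0973).

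**Figure D2:**
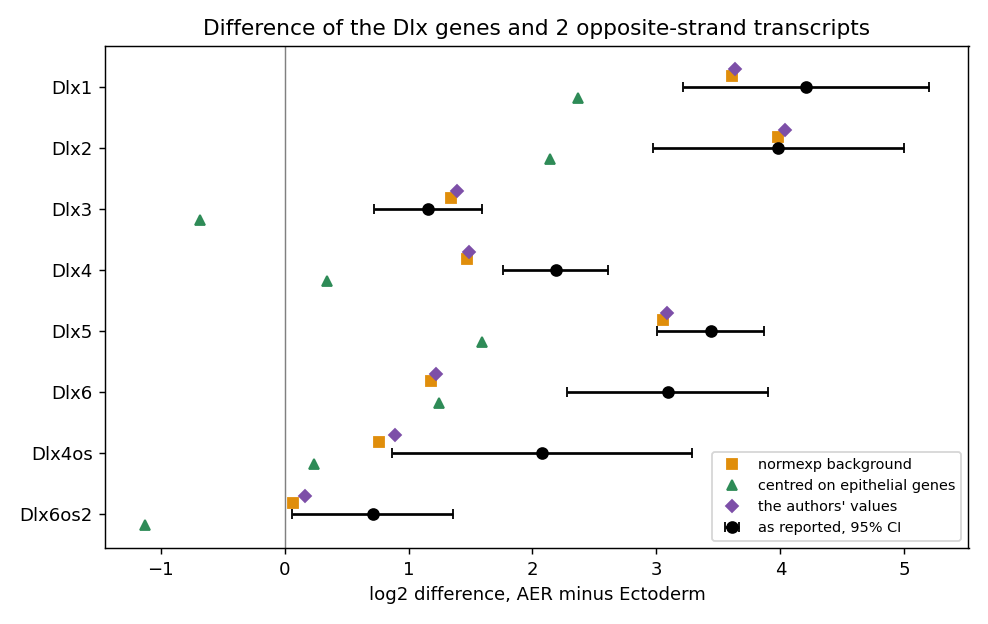
Log2 difference, AER minus Ectoderm (x axis), of each Dlx gene and of Dlx4os and Dlx6os2, with 95% confidence intervals (black, as reported) and under normexp correction (squares), epithelial centring (triangles) and the authors' processed values (diamonds). Dlx1, Dlx2 and Dlx5 stay at 1.60 or above throughout, Dlx6 falls to 1.18 with normexp, and Dlx3 and Dlx6os2 are below 0 under epithelial centring.

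Markers of other tissue moved with the groups. The 13 epithelium markers summed to between 238 and 252 times the 75th percentile signal on AER arrays and to between 82.7 and 124 on Ectoderm arrays, and 12 of 13 were higher in AER. The 8 mesenchyme markers summed to between 199 and 227 on AER arrays and to between 356 and 545 on Ectoderm arrays. Muscle progenitor markers summed to between 0.200 and 0.629 on AER arrays and to between 9.96 and 24.5 on Ectoderm arrays, with Myf5 above background on no array. No muscle marker was above background on all 3 AER arrays. Nerve, Schwann and melanoblast markers summed to between 5.25 and 7.28 on AER arrays and to between 2.31 and 2.62 on Ectoderm arrays. Of 5 markers each for endothelium, erythroid cells and macrophages none passed limma's test (medians 0.25, -0.20 and -0.19), with 0, 1 and 1 at an unadjusted p under 0.05. The part of these tissues in the Dlx differences was not tested.

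Centring on the epithelium markers takes 1.84 from each log2 difference and gave a median over all probes tested of -1.90, against -0.06 in the main scaling, with 0.788% of the called probes higher, where the main scaling had 46.5%. With a percentile of only those probes detected on every array that share was 59.3% and the median 0.04. Relative to the epithelium markers, Dlx1 was 5.16-fold, Dlx2 4.42-fold, Dlx5 3.02-fold and Dlx6 2.38-fold higher in AER, with adjusted p between 4.60e-05 and 0.00573.

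Whether the partners of a pair differed unequally between the tissues was tested on their log2 ratio within each array. The level of such a ratio depends on the probes, so only its change between the groups is read. The ratio of Dlx1 to Dlx2 was -2.41, -1.65 and -2.48 on AER arrays and -2.61, -2.54, -2.47 and -1.99 on Ectoderm arrays, and the groups overlapped. Its change was 0.22 (95% confidence interval -0.49 to 0.94, exact two-sided permutation p = 0.4). The ratio of Dlx5 to Dlx6 was 3.30, 2.73 and 3.64 on AER arrays and 3.00, 3.19, 2.10 and 3.21 on Ectoderm arrays, a change of 0.35 (-0.64 to 1.33, exact permutation p = 0.457), again with overlap. In 3 of those 4 Ectoderm ratios, as in the ratios of the Dlx5/6 mean, the Dlx6 signal was not well above background. The ratio of Dlx3 to Dlx4 was 2.49, 1.65 and 2.49 on AER arrays and 3.12, 2.98, 3.15 and 3.70 on Ectoderm arrays. These groups did not overlap, and the change was -1.03 (-1.80 to -0.26), so that Dlx4 differed more than Dlx3. Its exact permutation p of 0.0571 is the smallest that 35 splits of 3 against 4 arrays allow, and was 0.114 adjusted over the 6 ratios computed.

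The partner ratios of the dimmer genes depended on the background correction. The normexp offset of 50 was above the Dlx6 signal on every Ectoderm array. With normexp the change for Dlx3 and Dlx4 was -0.13 (exact permutation p = 0.514) and that for Dlx5 and Dlx6 was 1.87 (exact permutation p = 0.0571). For Dlx1 and Dlx2 it was -0.37 (exact permutation p = 0.229), on the other side of 0.

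The pairs themselves were compared in the same way, an addition made after the values had been seen. The mean of Dlx1 and Dlx2 changed more than that of Dlx3 and Dlx4 by 2.42 (1.28 to 3.57), with ratios of 1.62, 1.93 and 2.03 on AER arrays and -1.21, -0.71, 0.49 and -0.82 on Ectoderm arrays. The mean of Dlx5 and Dlx6 changed more than that of Dlx3 and Dlx4 by 1.59 (1.03 to 2.15), with ratios between -1.14 and -0.75 on AER arrays and between -2.96 and -2.16 on Ectoderm arrays. Both had no overlap and the smallest possible exact permutation p of 0.0571, which was 0.114 adjusted over the 6 ratios computed. Dlx1 and Dlx2 against Dlx5 and Dlx6 gave 0.83 (0.08 to 1.59, exact permutation p = 0.114, adjusted 0.171), and AER replicate 1 and Ectoderm replicate 3 both read 2.65. With normexp these 3 changes were 2.39, 0.71 and 1.68.

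**Figure D3:**
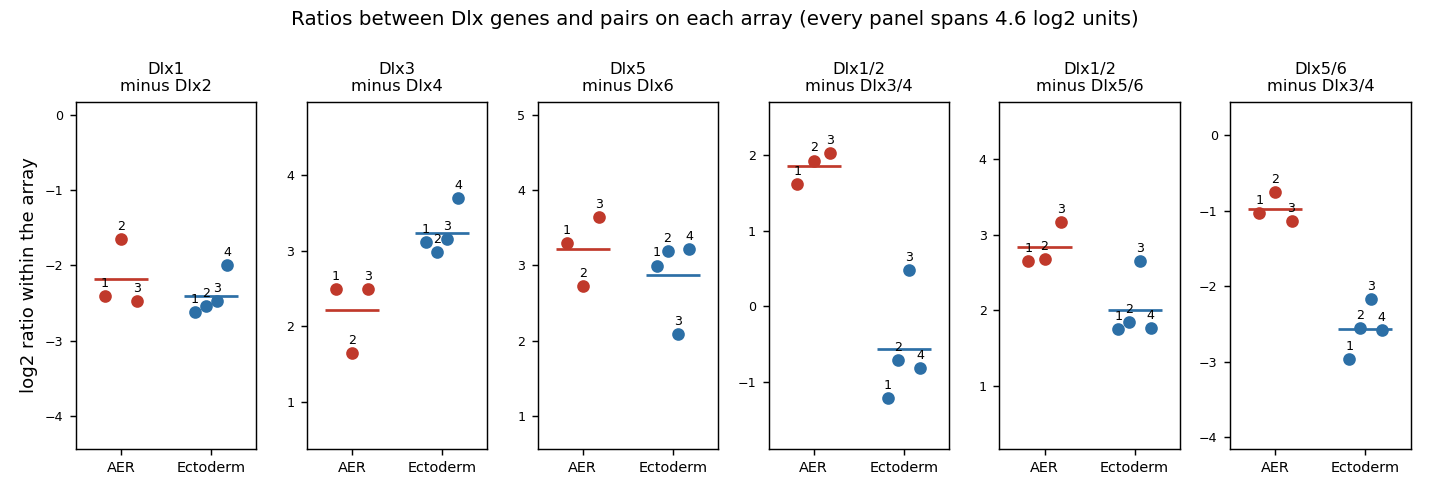
Log2 ratio within each array (y axis) of the partners of each pair and of the pair means, on AER arrays (red) and Ectoderm arrays (blue), numbered by replicate, with the group mean as a line. Every panel spans the same height. The groups are apart for Dlx3 against Dlx4 and for both ratios over the Dlx3/4 pair, and overlap for Dlx1 against Dlx2 and for Dlx5 against Dlx6.

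Noncoding transcripts of the Dlx loci had probes for Dlx1as, Dlx4os, Dlx6os1 and Dlx6os2. Dlx6os2, at 609 bp from the Dlx6 probe, had signals of 105, 105 and 62.7 on AER arrays, against 41.4, 50.5, 31.6 and 65.0 on Ectoderm arrays. The groups overlapped, and the difference of 0.71 did not pass (adjusted p = 0.134), though it was 1.46 and passed within slide row 1 (adjusted p = 0.0454) and was below 0 within slide row 2 and under epithelial centring. Dlx4os, at chr11:95020238-95020297, had signals of 146, 76.9 and 62.4 on AER arrays, against 46.8, 15.4, 13.8 and 9.97 on Ectoderm arrays, where replicate 1 alone was above background. It was 4.22-fold higher (difference 2.08, adjusted p = 0.0325). That call was lost in 11 of 21 alternatives, among them leaving out AER replicate 1 (adjusted p = 0.0881), AER replicate 3 (0.0537), or Ectoderm replicate 2 (0.0841), 3 (0.0556) or 4 (0.0808).

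Dlx6os1 and Dlx1as were each above background on 2 of 3 AER arrays and on none of 4 Ectoderm arrays, and did not enter the fit. Dlx6os1 had signals of 27.6, 85.5 and 76.8 on AER arrays, against 6.88, 10.8, 22.6 and 18.8 on Ectoderm arrays. Relative to the 75th percentile probe the groups overlapped, with -3.63 on AER replicate 1 and -3.51 on Ectoderm replicate 3. By group means it was at least 1.98-fold higher in AER, a bound set by the lowest signal called well above background on each Ectoderm array. The AER mean in that bound includes replicate 1, which was not well above background. Dlx6os1 did not pass in a fit of all probes (adjusted p = 0.132). Dlx1as had signals of 9.42, 29.1 and 24.2 on AER arrays, against 5.94, 5.89, 4.49 and 5.26 on Ectoderm arrays, and its fold is not given because the bound fell under 1. Its adjusted p in the fit of all probes was 0.0166. No difference is read from that value, since no Ectoderm array was above background.

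Genes within 500 kb of the pairs were counted to see the Dlx genes beside their neighbours, with the brightest probe for each gene. Of 38 neighbours tested 6 were higher and 2 lower, with medians of 0.21 around Dlx1/2, -0.07 around Dlx3/4 and -0.24 around Dlx5/6. Over all 20823 genes tested 6.93% were higher and 8.47% lower, with a median of -0.08. Under epithelial centring no neighbour was higher and 33 were lower, where 215 of all 28276 probes tested were higher and 27077 lower. The balance also depended on the background correction. With normexp 5 neighbours were higher and 6 lower, where 1809 of all probes were higher and 2821 lower. In the authors' processed values 8 were higher and 6 lower, where 2642 of all probes were higher and 2264 lower.

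Around Dlx1 and Dlx2, 2 of 12 neighbours were higher: Itga6, an integrin subunit of epithelial basal cells, at 1.67 (adjusted p = 0.000322), and Metap1d, a mitochondrial methionine aminopeptidase, at 0.65 (adjusted p = 0.0475). Around Dlx3 and Dlx4, 4 of 21 were higher, with Nxph3 at 1.80 (adjusted p = 0.000343), the integrin subunit Itga3 at 1.39 (adjusted p = 0.00188), the neurotrophin receptor Ngfr at 2.12 (adjusted p = 0.0102) and Dlx4os. The same neighbourhood held the 2 that were lower, the collagen gene Col1a1 at -3.61 (adjusted p = 3.55e-05) and the muscle sarcoglycan gene Sgca at -3.63 (adjusted p = 6.42e-05), the second above background on 1 of 3 AER arrays. Ngfr was named after its value was seen. None of the 5 tested around Dlx5 and Dlx6 passed at an adjusted p under 0.05 in limma's fit, and 3 had an unadjusted p under 0.05. The nearest to passing was Sdhaf3 at -1.03 (adjusted p = 0.0670).

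**Figure D4:**
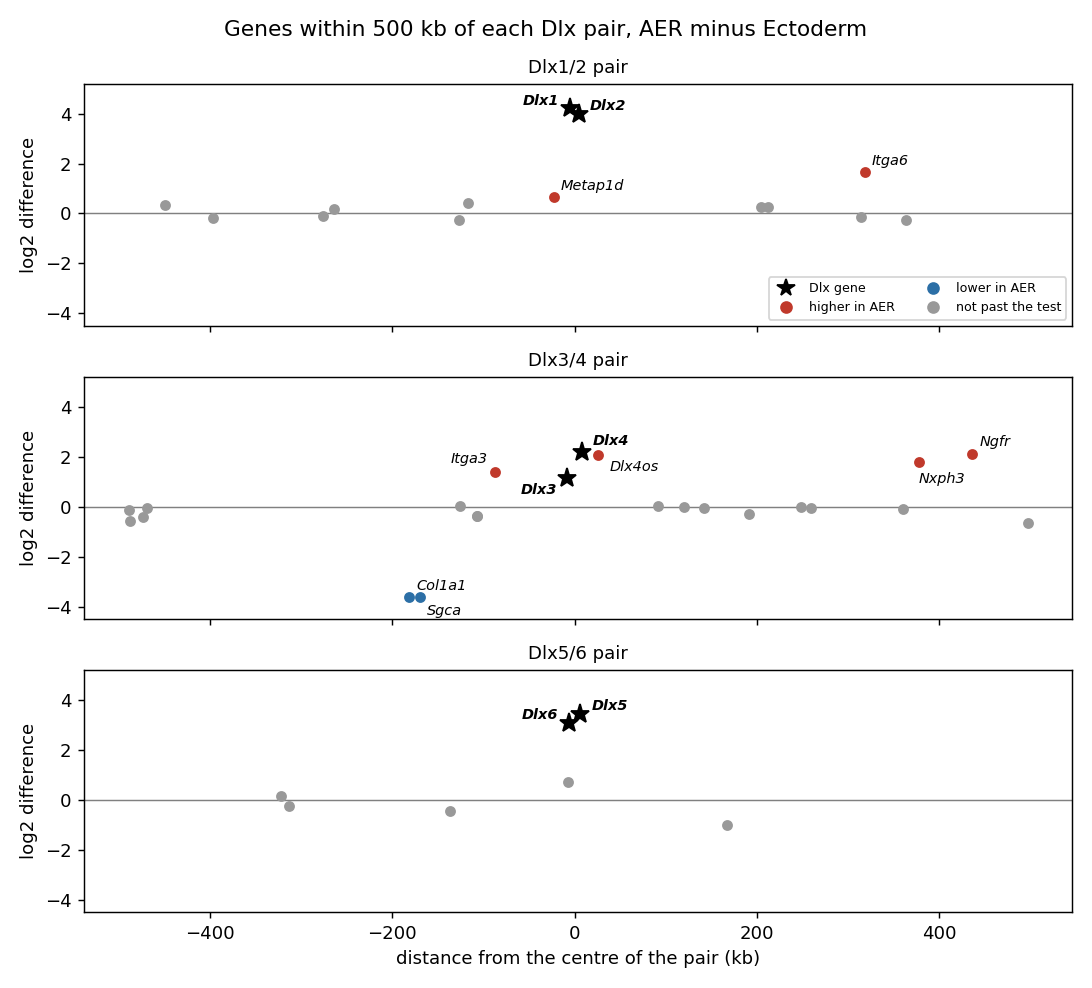
Log2 difference, AER minus Ectoderm (y axis), of genes within 500 kb of each pair against distance from the centre of the pair in kb (x axis). Stars are Dlx genes, red and blue dots are neighbours higher and lower in AER, and grey dots did not pass the test. The Dlx1/2 and Dlx5/6 stars stand far above all their neighbours, Dlx4 at 2.19 lies just above Ngfr at 2.12, and Dlx3 at 1.16 lies below 4 of its neighbours. Under epithelial centring Dlx3 is below 0.

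Lists of genes that act with Dlx genes were counted in the same fit, against 6.93% higher and 8.47% lower with a median of -0.08 over all genes tested. The counts of each list under epithelial centring stand against 215 higher and 27077 lower of all 28276 probes tested. Of 19 regulators of ridge formation and maintenance 13 were higher and none lower (median 1.84), against 7 higher and 8 lower under epithelial centring. The higher ones include Fgf8, Fgf4, Rspo2 and Sp8, which are also ridge markers read above, so their direction is no separate result. Part of this count was therefore given by the labelled tissue. Those with the smallest p were the zinc finger factor Sp9, at least 6.13-fold higher (adjusted p = 2.01e-05) because no Ectoderm array was above background, the AP-2 factor Tfap2c at 3.12 (adjusted p = 4.34e-05), the WNT enhancer Rspo2 at 5.47 (adjusted p = 6.87e-05) and Sp6 at 4.13 (adjusted p = 7.67e-05). In mouse limb buds Sp6, Sp8 and Sp9 act downstream of WNT signalling in the ridge. The other 6, which include the p63 gene Trp63 at -0.25 (adjusted p = 0.419, named after its value was seen), did not pass.

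Of 5 genes whose proteins are reported to bind DLX proteins, 2 were higher and 1 lower (median 0.60), against 2 higher and 3 lower under epithelial centring. Msx1 at 4.14 (adjusted p = 0.000175) and Msx2 at 3.38 (adjusted p = 0.000345), homeodomain proteins that can pair with DLX proteins, were higher under both scalings. Maged1, an adaptor of the MAGE family, was lower at -0.94 (adjusted p = 0.00434), and Grip1, a scaffold protein, was at 0.60 (adjusted p = 0.171). Among 20 limb homeobox genes tested outside the Dlx family, which again include Msx1, Msx2 and Meis2, 5 were higher and 5 lower (median -0.18), against 4 and 15 under epithelial centring. Among those with the lowest p values were Shox2 at -6.40, above background on 2 of 3 AER arrays, Gsc at -5.32, above background on 1 of 3, and Six2 at -5.38 (adjusted p between 6.14e-06 and 6.42e-05).

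Of 15 genes placed downstream of Dlx genes in forebrain, jaw, bone or hair, 7 were tested, and 2 were higher and 3 lower (median 0.35), against none higher and 6 lower under epithelial centring. Without AER replicate 3, Ectoderm replicate 2 or Ectoderm replicate 4, none was higher and 3 were lower, as with normexp. Gsc, a jaw target, was lower as given above, and Hand2, which Dlx5 and Dlx6 drive in the mouse jaw, was lower at -1.53 (adjusted p = 0.0115). Hoxc13, a hair factor, was higher at 0.91 (adjusted p = 0.0199) and turned lower under epithelial centring, and its call was lost in each of these settings.

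**Figure D5:**
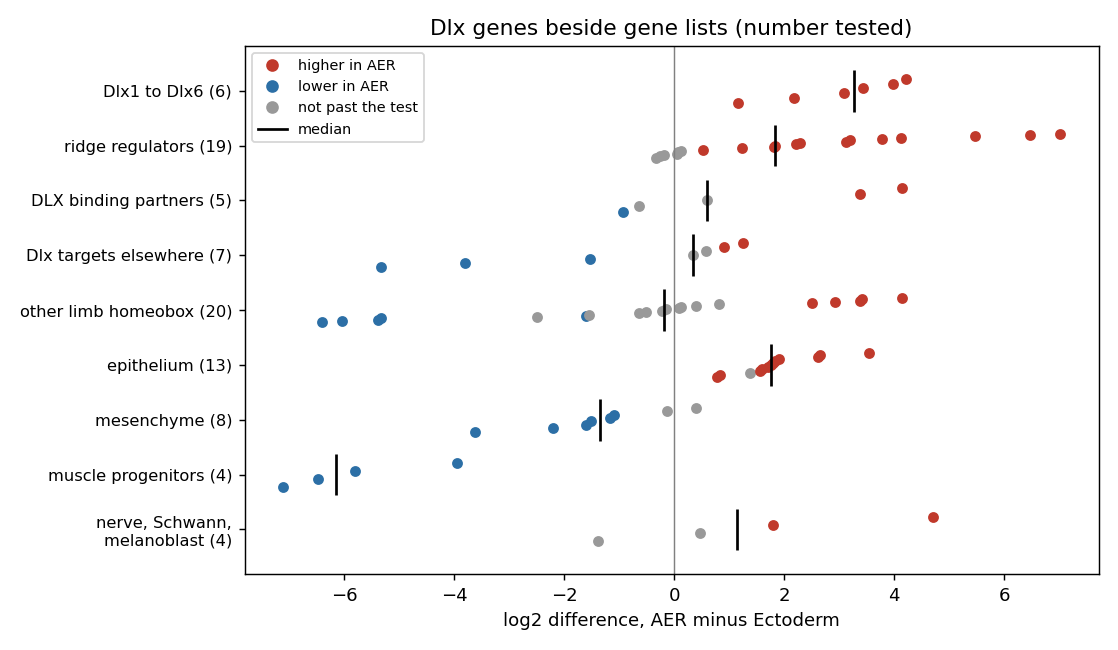
Log2 difference, AER minus Ectoderm (x axis), of Dlx1 to Dlx6 and of the tested members of each list, with the median as a black bar, red for higher and blue for lower in AER and grey for genes that did not pass. Genes measured only as a bound, such as Sp9, are drawn at their fitted values. The Dlx genes lie between 1.16 and 4.21, on the side of the ridge regulators and the epithelium list, whose medians are 1.84 and 1.77, and away from mesenchyme and muscle at -1.34 and -6.14. No muscle gene was above background on all 3 AER arrays, so the muscle median rests partly on background. Epithelial centring takes 1.84 from every point, which puts Dlx3 below 0.

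The genes most like each Dlx gene were found by Pearson's r over the 7 arrays among 14119 named genes, a description that the difference between the groups largely sets for all of them. Dlx1 was most like 2610528A11Rik (r = 0.997), Tulp2 and Cpne2. Lmo2, a LIM-only transcriptional cofactor, was among the 3 genes most like Dlx2 (r = 0.996). Dlx3 was most like Dhrs7 (r = 0.994), Tmem54 and Ass1, and Dlx4 most like Pla2r1 (r = 0.998), Ttc9 and Pawr. Dlx5 was most like Sp9 (r = 0.999, with Sp9 above background on no Ectoderm array), Etv1, an FGF-responsive ETS factor, and Sptlc3. Dlx6 was most like the chloride channel gene Ano1 (r = 0.998), the netrin receptor gene Unc5b and Cpne2.

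Partners were not each other's nearest genes by this measure. Dlx2 ranked 33 in the list of Dlx1 (r = 0.989) and Dlx1 ranked 18 in that of Dlx2. Dlx6 ranked 264 for Dlx5 (r = 0.964), and Dlx4 ranked 421 for Dlx3 (r = 0.905). The Dlx gene nearest to Dlx6 was Dlx1, at rank 7 (r = 0.994). Every r and rank that involves Dlx6 rests partly on background, since Dlx6 was well above it on 1 of 4 Ectoderm arrays. Relative to the 75th percentile probe, Ectoderm replicate 3 was the highest of its group for all 6 Dlx genes, so this does not set Dlx1 and Dlx6 apart.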

How the data were processed

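Arrays were grouped by their titles (3 AER, 4 Ectoderm). Per the file headers, Agilent Feature Extraction 10.7.3.1 made the deposited processed signal, a linear intensity from which background and spatial trend had been taken, without scaling of the arrays to each other, and flags mark probes well above background. The deposited matrix holds log2 values, and limma is named in the submitters' processing notes without a version. Recomputed with normexp (offset 50) and quantiles of all spots, log2 values lay within 0.000108 of the authors' values.

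Control, uneven and outlying spots were left out and spots of 1 probe averaged. Log2 processed signals were set relative to the 75th percentile of the array's non-control probes. Of 62976 spots 59305 were not controls, and 28276 of 55681 probes were well above background on at least 3 of 7 arrays and were tested with limma 3.58.1 in R 4.3.3, two-sided, with 5 residual and 3.63 prior degrees of freedom and a threshold of 0.05 for the Benjamini-Hochberg adjusted p. Fold intervals are 95% intervals of that fit. Intervals of the within-array ratios use the pooled SD, and their p values are exact over 35 splits. The scripts were tested on simulated data. Files were read with Python 3.11.15, pandas 2.3.3, numpy 2.4.6 and data.table (version 1.17.8), and plots drawn with matplotlib 3.10.9. All arrays sat on 1 slide with 1 scan time. The number of arrays limits the precision, and p values measure the spread between pools.

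The genes, lists and neighbourhoods were chosen with earlier results of these data known. Named genes are the Dlx genes, their noncoding transcripts, the members of each list or neighbourhood with the smallest p (at most 4), and the 3 genes most like each Dlx gene; a few genes that this rule takes are not reported here. Alternatives covered background correction, scaling, filter, probe choice, slide row, replicate number, array weights and leaving out each array.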

Additional observations from a re-analysis of the deposited data

Results flagged for a closer look

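The within-array log2 ratio of the Dlx1/2 mean to the Dlx5/6 mean was 2.65 on Ectoderm replicate 3, and 1.75, 1.84 and 1.76 on the other Ectoderm arrays. The gap to the nearest of the others took 0.900 of the group's range, above the critical value for 4 arrays. AER arrays read 2.65, 2.68 and 3.17, a group of 3 that is not tested in this way. Chance sets 1 such group in 20 apart.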

How the results depend on the processing

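Of 131 alternative values for the 6 Dlx genes over 22 settings, 130 kept their direction and 124 were higher past the threshold. Settings that changed only the filter or the probe choice repeated the main differences of the Dlx genes they kept, so their directions could not change. Normexp and the authors' values share a background correction and are not separate checks. Dlx3 reversed under epithelial centring (-0.68). Dlx6os2, not called, was -1.13 (adjusted p = 0.00209) under that centring, -0.13 within slide row 2 and 1.46 (adjusted p = 0.0454) within slide row 1. Whether the numbers in the titles pair the arrays could not be told: deviations of same-numbered arrays correlated at -0.06, 0.17 and 0.11. AER replicates 2 and 3 were closest to the Ectoderm array of their own number, and AER replicate 1 to Ectoderm replicate 3 (0.18). These correlations are too few and too small to decide it. A block on the numbers in the titles gave 3033 probes differing, against 4240 without it, and a block on the numbers in the file names 4255, with all 6 Dlx calls kept. Probes differing numbered 27292 under epithelial centring, 885 and 1683 within the slide rows, and 2821 to 4212 with 1 array left out, lowest without Ectoderm replicate 4. Dlx probes called fell to 2 within row 1 and were 6 with each array left out. Neighbours called were 14 with the authors' values (8 higher, 6 lower), where 4906 of all 28276 probes were called. They were 11 with normexp (5 higher, 6 lower), where 4630 probes were called. Neighbours called were 33 under centring and 6 to 8 with 1 array left out. List genes called were 9 within row 1 and 25 to 28 with 1 array left out. Each row leaves a lone array in 1 group, taken to vary like the other group's arrays, and has fewer arrays. Changes of the partner ratios with normexp and the authors' values were -0.37 and -0.40 for Dlx1 and Dlx2, -0.13 and -0.10 for Dlx3 and Dlx4, and 1.87 and 1.87 for Dlx5 and Dlx6. With 1 array left out they ranged over -0.04 to 0.37, -1.17 to -0.75 and 0.09 to 0.60. The mean of all probes per gene could give no other value, with 1 probe each. Elsewhere the cause was not tested. Signals near background limit Dlx6 and the noncoding transcripts most.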
